A study of Mus musculus with 11 samples.

Results

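The 2 short RNA duplexes that were made against *Mamld1*, siRNA1 and siRNA2, were compared directly with each other in mouse Leydig tumor cells (MLTCs, the line MLTC-1). The comparison took 7 of the 11 arrays of the series, namely the 4 arrays whose titles name siRNA 1 and the 3 arrays whose titles name siRNA 2, and the 4 arrays of cells given non-targeting control RNA (4611G) are shown for reference only. Every culture, the controls included, was transfected with Lipofectamine RNAiMAX at 20 nM RNA and harvested 48 h later. The study's methods add that human chorionic gonadotropin (hCG) was given shortly before the harvest, which the sample labels do not mention. MLTCs are a tumor-derived line and do not stand for normal Leydig cells in every respect. The labels number the replicates and do not say whether they were separate cultures, so the p-values below measure the spread between these arrays, which may be technical.

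As background, an siRNA guides the RNA-induced silencing complex to a transcript that it matches over its whole length, and the complex cuts that transcript. The same guide strand can also repress other transcripts, mostly through a short match of its 5′ seed to their 3′ untranslated regions, so that each duplex has a set of transcripts of its own besides the shared target. For this reason a knockdown is usually done with more than 1 duplex. *Mamld1* encodes a Mastermind-like protein of fetal Leydig cells, the testicular cells that make testosterone (T).

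The arrays were single-color Agilent mouse arrays with 45018 spots, of which 43379 were not control spots and carried 41174 probes. The 75th percentile of the raw signal was 601 to 774 on the siRNA1 arrays, 488 to 579 on the siRNA2 arrays, and 469.7 to 582 on the control arrays, so that the siRNA1 arrays were the brightest, and each array was scaled to its own 75th percentile. Levels are given below as scaled signals, that is, signals brought to a common 75th percentile of 568. A scaled signal is not a copy number and is not comparable between probes. The lowest signal that the scanner software called well above background was 6.53 to 9.12 on this scale. Each of the 3 slides carried arrays of all groups, and 2 arrays of unlike groups deviated from their group means more alike if they shared a slide (median r = 0.301 across probes, 13 pairs) than if they did not (median r = -0.124, 27 pairs). Differences are therefore also given within slides. Values for probes are not independent replicates, and no test is attached to these correlations.

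The shared target was first compared. *Mamld1* stood at scaled signals of 14.5, 24.0, 15.0, and 13.7 with siRNA1 and at 14.1, 21.4, and 20.4 with siRNA2, against 27.4, 26.5, 37.1, and 34.8 with non-targeting RNA. All siRNA arrays were below all control arrays, and the arrays of the 2 siRNAs overlapped. The log2 difference, siRNA1 minus siRNA2, was -0.16 (standard error 0.22, limma adjusted p = 0.640), and permuting the arrays between the siRNAs gave an exact two-sided p of 0.543. A difference in the remaining *Mamld1* was not detectable with these arrays, on which the gene was dim. *B2m*, the reference gene of the study's PCR, differed by -0.15 (standard error 0.10, limma adjusted p = 0.293).

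Many other transcripts separated the duplexes. Among 24177 tested probes, 462 (1.91%) were called higher and 349 (1.44%) lower with siRNA1 than with siRNA2, where a call needs 2-fold or more and an adjusted p (Benjamini-Hochberg) that does not exceed 0.05. Against non-targeting RNA, 2.99% of the probes were called with siRNA1 and 2.25% with siRNA2, in either direction. The median absolute log2 difference over all probes was 0.224 between the siRNAs, 0.224 between siRNA1 and control, and 0.188 between siRNA2 and control, where the median standard deviation within a group was 0.160 to 0.170. Of the 811 called probes, 804 had no overlap between the arrays of the siRNAs, as had 31.3% of all tested probes. Of the same 811, 810 differed in the same direction within each of the 3 slides, as did 64.6% of all tested probes. For the 804 this follows from the lack of overlap. With slide as a block in the fit, 463 and 366 probes were called.

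**Figure D1:**
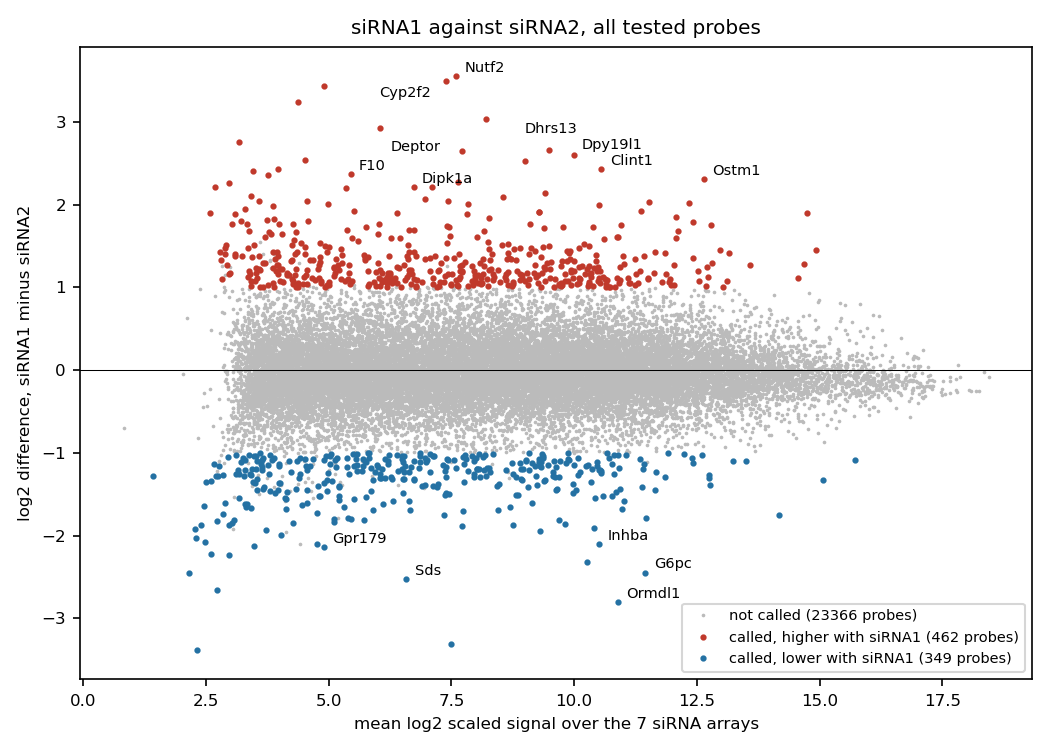
Log2 difference, siRNA1 minus siRNA2, of each of the 24177 tested probes (y axis) against its mean log2 scaled signal over the 7 siRNA arrays (x axis). Red and blue points are the 462 and 349 called probes, gray points the rest, and names mark the largest differences among named genes well above background on all 7 arrays. Called probes occur from dim to bright signals, and the top gene, *Nutf2*, differs by 3.56.

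The called probes were described by where the control lay. Of the 462 probes higher with siRNA1, 170 had siRNA1 within 0.5 log2 units of control and siRNA2 at least 2-fold below it. A further 59 had siRNA2 within 0.5 of control and siRNA1 at least 2-fold above it, and the other 233 fitted neither description. Of the 349 probes lower with siRNA1, 155 had siRNA2 near control and siRNA1 at least 2-fold below it, 19 had siRNA1 near control and siRNA2 at least 2-fold above it, and 175 fitted neither. A loss with 1 duplex and a level near control with the other was therefore the more frequent of these patterns on both sides. The same 4 patterns were met by 233, 108, 249, and 70 of all tested probes, called or not. These counts carry no test, because the control arrays enter each of them.

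The transcripts most different between the duplexes are described first on the side that was higher with siRNA1. The gene with the largest difference was *Nutf2*, which encodes a carrier that returns the GTPase Ran to the nucleus. Its scaled signals were 588, 554, 534, and 549 with siRNA1, 57.0, 37.9, and 48.9 with siRNA2, and 350.3 to 446 on the control arrays. The siRNA2 arrays were far below all others, and the log2 difference was 3.56 (standard error 0.13, limma adjusted p = 8.76e-08). However, the other *Nutf2* probe, which was brighter, gave means of 21090 and 20216 and a difference of 0.06 (adjusted p = 0.663), so that the 2 probes of this gene disagree.

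*Cyp2f2*, a cytochrome P450 of xenobiotic metabolism, stood at 456, 481, 483, and 473 with siRNA1 and at 42.8, 42.2, and 40.8 with siRNA2, with controls of 141 to 154. The controls lay between the duplexes, and the log2 difference was 3.50 (standard error 0.07, limma adjusted p = 7.79e-10). *Deptor*, an inhibitor of the kinase mTOR, stood at 451, 485, 445, and 465 with siRNA1 and 66.9, 79.9, and 74.3 with siRNA2, with controls of 179 to 221. Its difference was 2.65 (adjusted p = 8.76e-08), and its second probe gave 2.53. *Dipk1a*, a protein of the endoplasmic reticulum with a kinase-like domain, stood at 221, 191, 217, and 194 with siRNA1 and 55.5, 38.5, and 40.5 with siRNA2, with controls of 81.7 to 111 (difference 2.21, adjusted p = 2.76e-06). Each of these 3 genes was above all controls with siRNA1 and below all of them with siRNA2.

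A second kind of gene stood near control with siRNA1 and was low with siRNA2. *Dhrs13*, of the short-chain dehydrogenase family, stood at 1606, 1595, 1496, and 1666 with siRNA1 and at 225, 250.5, and 284 with siRNA2, with controls of 1286 to 1617 (difference 2.66, adjusted p = 1.11e-07). *Ostm1*, a lysosomal membrane protein, stood at 12238 to 13336 with siRNA1 and at 2845, 2347, and 2550.0 with siRNA2, with controls of 11860.0 to 14565 (difference 2.31). *Jak1*, the tyrosine kinase shared by many cytokine receptors, stood at 10387, 8325, 10063, and 9341 with siRNA1 and at 2644, 1876, and 2570.0 with siRNA2, with controls of 7755 to 9952 (difference 2.02, adjusted p = 3.83e-06). In all 3 genes the siRNA1 and control arrays overlapped and the siRNA2 arrays lay apart. The second probe of *Jak1* gave 1.75.

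The remaining genes of this side were *Dpy19l1*, a mannosyltransferase (2.60), *Clint1*, a clathrin adaptor (2.42), *Klhl42*, an adaptor of the ubiquitin ligase cullin 3 (2.09), *Pir*, an iron-binding nuclear protein (2.03), and *F10*, coagulation factor X (2.37). The first 4 of them were called lower than control with siRNA2. The second probe of *Dpy19l1* differed by 2.21 and that of *Clint1* by 0.98, while of the 2 other probes of *Klhl42* 1 was not well above background on any siRNA2 array and the other differed by 0.31 (adjusted p = 0.0564). *F10* was different, since it stood at 76.2, 91.2, 85.2, and 102 with siRNA1 against 17.4 to 26.9 on the control arrays and 29.8, 13.2, and 12.7 with siRNA2. Its within-slide differences ranged from 1.35 to 3.01, the widest among the 24 genes.

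On the side that was lower with siRNA1, *Ormdl1* led. It encodes a regulator of serine palmitoyltransferase, the entry enzyme of sphingolipid synthesis. Its scaled signals were 914, 748, 812, and 847 with siRNA1, 6149, 5525, and 5648 with siRNA2, and 4111 to 5208 on the control arrays. The siRNA1 arrays were below all others, and the log2 difference was -2.80 (standard error 0.11, limma adjusted p = 8.76e-08). *Sds*, serine dehydratase, followed with 37.3, 49.7, 44.7, and 50.6 with siRNA1 and 235, 239, and 312 with siRNA2, with controls of 144 to 226 (difference -2.52, adjusted p = 3.49e-06). *Gpr179*, an orphan receptor best known from the retina, stood at 13.3 to 20.8 with siRNA1 and at 62.1, 63.4, and 87.2 with siRNA2, with controls of 78.7 to 114 (difference -2.14).

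*Inhba* encodes the βA subunit from which activin A and inhibin A are assembled, both of which are known regulators in the testis. It stood at 720.2, 889, 681, and 845 with siRNA1 and at 2871, 3528, and 3649.7 with siRNA2, with controls of 2687 to 3560.5. The siRNA2 and control arrays overlapped, and siRNA1 was lower by 2.10 on the log2 scale against siRNA2 (standard error 0.14, limma adjusted p = 2.97e-06). *Dnaaf2*, a factor for dynein arm assembly, stood at 452 to 523 with siRNA1 and at 1635 to 1731 with siRNA2, with controls of 1418 to 1611 (difference -1.81). *Creb3l4*, a membrane-bound transcription factor, and *Car6*, a secreted carbonic anhydrase, had differences of -1.81 and -1.85 and were also below all controls with siRNA1. *Col4a5*, a basement membrane collagen chain (-1.83), and *Tmem116* (-1.79) completed this set, with within-slide differences of -2.57 to -1.45 and of -2.25 to -0.95.

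Other genes of this side were high with siRNA2. *G6pc*, the catalytic subunit of glucose-6-phosphatase, stood at 1313, 1399, 1349, and 1367 with siRNA1, at 6688, 7224, and 8352 with siRNA2, and at 2297 to 2777 on the control arrays. The groups were fully separated, with the controls in between, and the difference between the siRNAs was -2.45 (adjusted p = 1.32e-07). *Fkbp7*, a folding enzyme of the endoplasmic reticulum, stood at 681 to 866 with siRNA1 and at 2823 to 2986 with siRNA2 (difference -1.90), with controls of 1086 to 1304. *Npy4r*, a receptor of the neuropeptide Y family, stood at 109.8 to 132 with siRNA1 and at 402 to 472 with siRNA2 (difference -1.88), with controls of 132 to 173.

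**Figure D2:**
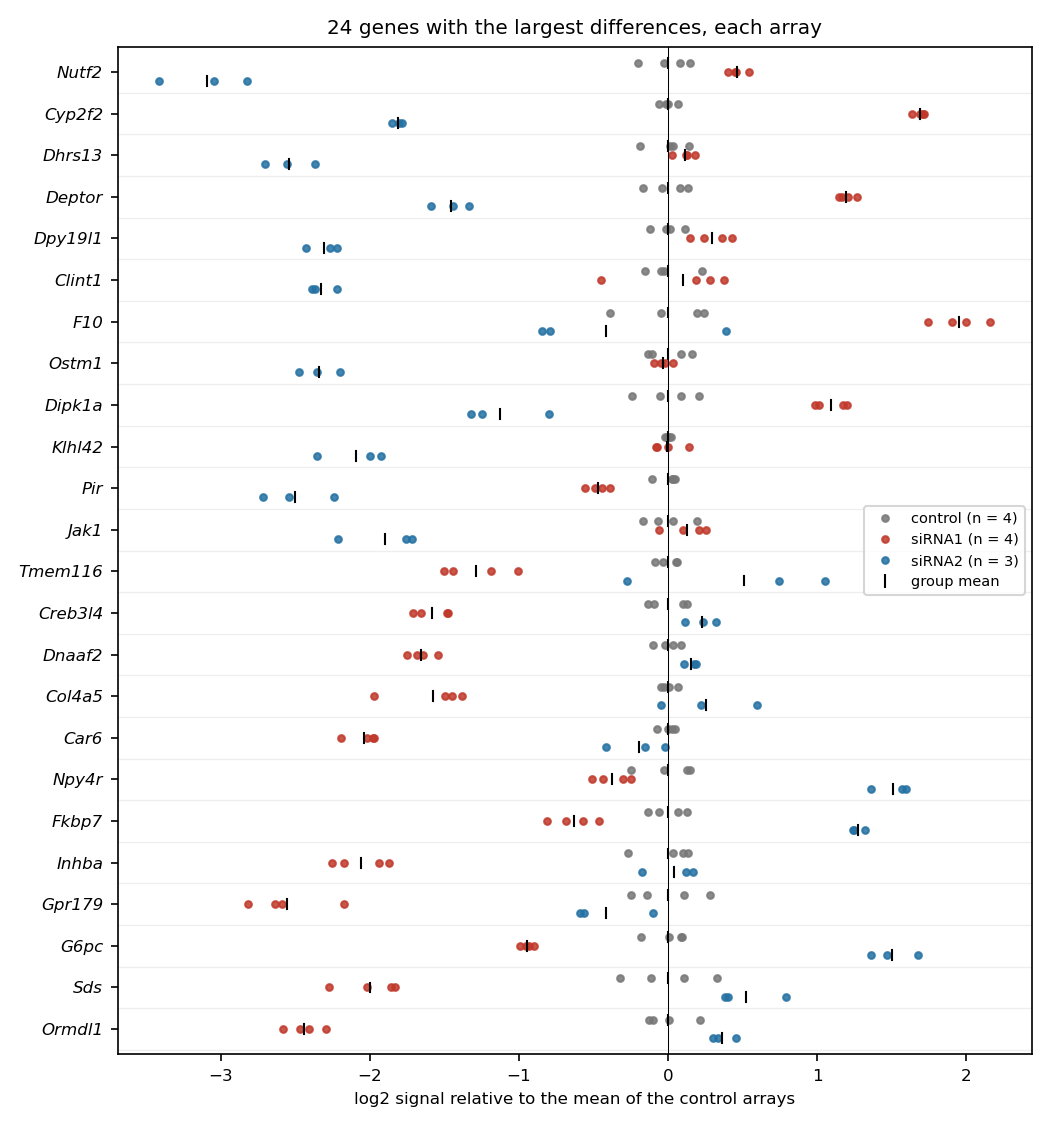
Log2 signal of each array relative to the mean of the 4 control arrays (x axis) for the 24 named genes with the largest differences (y axis), with controls in gray, siRNA1 in red, siRNA2 in blue, and bars at the group means. For *Nutf2* the siRNA2 arrays lie far to the left of the rest, for *Ormdl1* the siRNA1 arrays do, and for *Cyp2f2*, *Deptor*, and *Dipk1a* the controls lie between the 2 siRNAs.

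All 24 genes were called with slide as a block. Their shared direction within the 3 slides adds nothing, since genes were chosen without overlap between the siRNA arrays, which fixes it. Of 128 called genes with another tested probe, 104 had another probe past the adjusted p in the same direction, 73 had another called probe, and 0 had a probe past the adjusted p in the opposite direction. A called gene in these counts is a gene whose brightest probe was called. The counts therefore leave out genes in which a dimmer probe was called and the brightest was not. *Nutf2* above is such a gene, since its brightest probe did not pass, so the counts do not cover this kind of disagreement. Counted over genes, with the brightest probe of each of 11810 genes, 217 (1.84%) were called higher and 200 (1.69%) lower with siRNA1. With the adjusted p alone, 1398 genes (11.8%) were higher and 1710 (14.5%) lower, and the median log2 difference over all genes was -0.07.

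**Figure D3:**
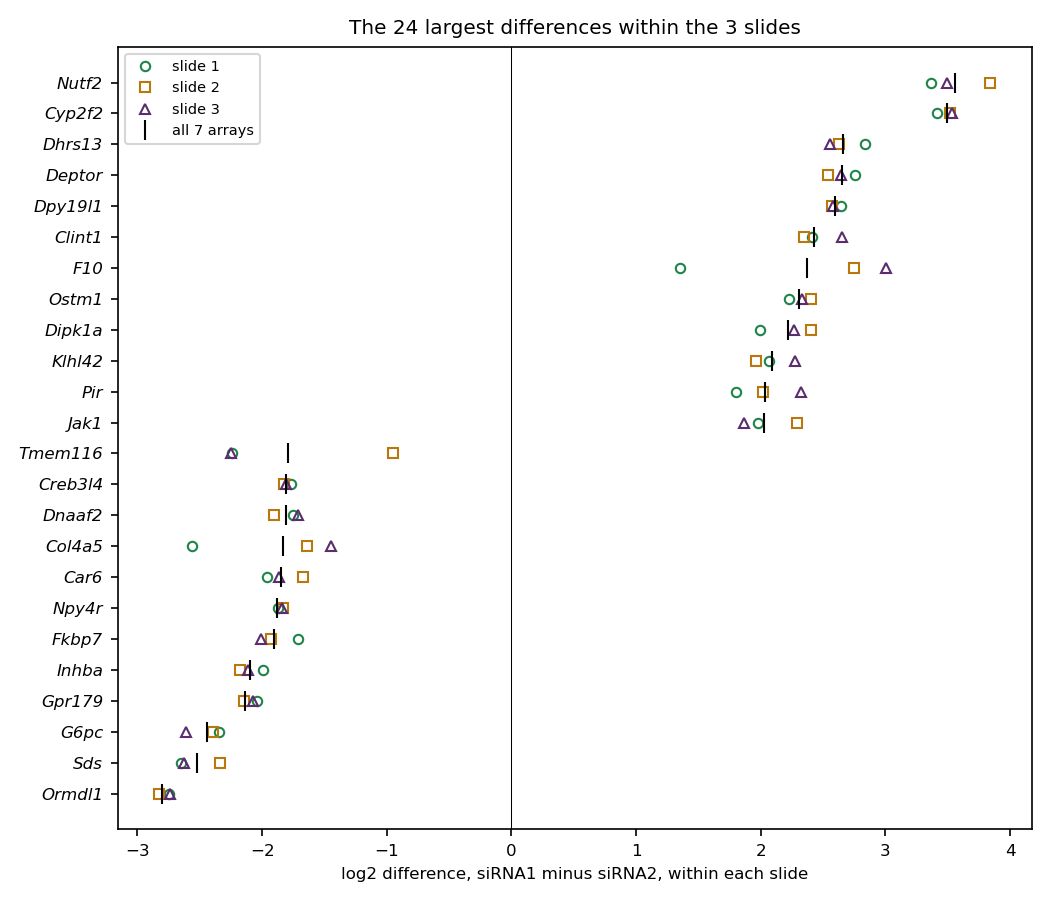
Log2 difference, siRNA1 minus siRNA2, of the same 24 genes within slide 1 (circles), slide 2 (squares), and slide 3 (triangles), with a bar at the difference over all 7 arrays. Every gene lies on the same side of 0 as its bar, which the choice of genes without overlap between the siRNA arrays fixed in advance. The widest spread is that of *F10*, from 1.35 to 3.01.

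Genes called against control in opposite directions with the 2 duplexes were few. They were *Cyp2f2* (1.69 with siRNA1 and -1.81 with siRNA2, log2 against control), *Deptor* (1.20 and -1.45), *Dipk1a* (1.09 and -1.12), and *Tril*, which encodes a modulator of Toll-like receptors (2.17 and -1.08). *Tril* stood at 58.1, 44.4, 63.2, and 53.4 with siRNA1, at 4.43, 5.21, and 8.17 with siRNA2, and at 10.9 to 13.6 on the control arrays. It was not well above background on any siRNA2 array, so that siRNA1 over siRNA2 is given as a bound of at least 6.62-fold. With 3 of the control arrays well above background, this probe entered the test through siRNA1 alone, where it was high, and no p-value is attached to the bound.

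Such bounds, the mean of the measured side over the higher of the dim probe's own signal and the lowest signal well above background, apply to 39 called probes measured on all siRNA1 and no siRNA2 arrays and to 22 of the converse kind. Among named genes, *Cfap161*, a cilia-associated protein, was at least 3.33-fold higher with siRNA1 (25.7 to 29.2 against 3.97 to 6.52), *Ugt2a1*, a glucuronosyltransferase, at least 1.85-fold (13.0 to 17.1 against 2.30 to 3.91), and *Cyp1a1*, a dioxin-inducible P450, at least 1.52-fold (10.3 to 15.9 against 1.75 to 5.59). *Tmem178* had a bound of 2.73-fold, but siRNA1 array 1 stood at 117 and the other 3 at 11.1 to 14.8, and without that array the bound was 1.57-fold. Its log2 difference of 2.40 (adjusted p = 0.0285) no longer passed without siRNA2 array 1 (2.35, adjusted p = 0.0687) or siRNA2 array 3 (2.07, adjusted p = 0.109). In the other direction, *Slc17a3*, a kidney and liver anion transporter, was at least 2.70-fold lower with siRNA1 (1.49 to 2.83 against 16.1 to 25.8) and *Mgat4c*, an N-glycan branching enzyme homolog, at least 2.69-fold (2.33 to 5.55 against 16.5 to 20.7). The bounds of *Lrrc18*, *Ndrg4*, and *Ttc22* were 1.80, 1.65, and 1.56-fold. Of these probes, those of *Ugt2a1* and *Cyp1a1* entered the test through siRNA1 alone, where they were high. Those of *Slc17a3* and *Ndrg4* entered it through siRNA2 alone, where they were high. The second probe of *Ndrg4* differed by -0.04 (adjusted p = 0.961).

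The genes of T production are those that the study set out to examine. Leydig cells take up or make cholesterol, Star delivers it to the inner mitochondrial membrane, Cyp11a1 cleaves its side chain with the help of Fdxr and Fdx1, and Hsd3b1, Cyp17a1, and Hsd17b3 carry the product on to T. Of 29 tested genes of this list, 3 passed the adjusted p with higher and 6 with lower signals in siRNA1-transfected MLTCs (10.3% and 20.7%, against 11.8% and 14.5% of all genes), and their median difference was -0.11, where that of all genes was -0.07. The shares are near those of all genes and show nothing particular to the list.

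*Lhcgr*, the receptor for luteinizing hormone and hCG, stood at 643, 509, 595, and 446 with siRNA1, at 1059, 942, and 826 with siRNA2, and at 818 to 863 on the control arrays. The siRNA1 arrays were below all others, and the difference was -0.79 (limma adjusted p = 0.00121, standard error 0.13), and an exact permutation test gave 0.0286, the smallest p that 4 arrays against 3 allow. *Nr0b1*, which encodes DAX1, a repressor of steroidogenic genes, stood at 107, 114, 111, and 103 with siRNA1, at 70.2, 69.8, and 54.3 with siRNA2, and at 51.2 to 57.6 on the control arrays (difference 0.76, adjusted p = 0.000389). *Akr1c18*, the enzyme that inactivates progesterone, was the called gene of this list. It stood at 85.1, 83.4, 67.1, and 67.7 with siRNA1, within reach of the controls (74.1 to 83.9), and at 38.4, 38.8, and 34.6 with siRNA2 (difference 1.02, adjusted p = 7.42e-05). *Cyb5b*, a cytochrome b5 of the outer mitochondrial membrane, differed by 0.59 (adjusted p = 0.000959) with its brightest probe and by 0.15 (adjusted p = 0.407) with the other. Normexp background correction is an alternative described in the closing section. With it, *Lhcgr* (-0.55, limma adjusted p = 0.226), *Nr0b1* (0.44, 0.977), *Akr1c18* (0.54, 0.977), and *Cyb5b* (0.44, 0.977) did not pass.

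*Cyp17a1*, the 17α-hydroxylase and 17/20 lyase, stood at 19070.0, 22002, 20782, and 20464 with siRNA1 and at 25947, 26858, and 31588 with siRNA2, against 32023 to 46072 on the control arrays. It was lower than every control array with both duplexes and lower with siRNA1 than with siRNA2, without overlap. The difference between them, -0.45 (standard error 0.13, limma adjusted p = 0.0255), was -0.46 with slide as a block (adjusted p = 0.00518). Leaving out siRNA1 array 1 (-0.41, adjusted p = 0.0631) or 3 (-0.45, 0.0539), or siRNA2 array 2 (-0.48, 0.0550) or 3 (-0.36, 0.108), took its adjusted p above 0.05, as did scaling by the median (-0.41, 0.0666). The adjusted p was also above 0.05 without the filter on dim probes (-0.45, 0.0616) and with normexp background correction (-0.56, 0.790). *Cyp11a1* stood at 49452 to 54672 with siRNA1 and at 63435 to 77752 with siRNA2, with controls of 44703 to 68368 (difference -0.43, adjusted p = 0.0371). Its second probe gave -0.48 (adjusted p = 0.0251). For the first probe, the adjusted p was 0.0527 to 0.145 when siRNA1 array 1, 2, or 3 or any siRNA2 array was left out, and 0.109 with scaling by the median. It was 0.0666 with quantile normalization, 0.0851 without the filter on dim probes, and 0.893 with normexp background correction (-0.55).

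Of the other genes of this list that passed, *Fdxr*, ferredoxin reductase, differed by -0.54 (adjusted p = 0.0222) and no longer passed when siRNA1 array 3 (-0.53, 0.0524) was left out, nor without siRNA2 array 2 (-0.55, 0.0576) or 3 (-0.42, 0.0982). It also missed 0.05 with scaling by the median (-0.50, 0.0591), without the filter on dim probes (0.0550), and in a fit of the siRNA arrays alone (0.0621). *Srd5a1*, a 5α-reductase, differed by -0.34 (adjusted p = 0.010) and no longer passed without siRNA2 array 2 (-0.31, 0.0507) or with scaling by the median (-0.30, 0.112). With normexp background correction neither *Fdxr* (-0.65, 0.459) nor *Srd5a1* (-0.44, 0.906) passed. *Cyp19a1*, aromatase, differed by -0.34 (adjusted p = 0.0458), and its adjusted p was above 0.05 when any array other than siRNA1 array 4 was left out (0.0506 to 0.124) and with slide as a block (0.0531), and it did not pass in 23 of 28 alternatives. The remaining 20 genes did not pass. They include *Star* (-0.10), *Hsd3b1* (-0.11), *Hsd17b3* (0.19), *Por* (0.17), *Nr5a1* (-0.12), and *Insl3* (-0.51, adjusted p = 0.211), the last of which passed with slide as a block (-0.52, adjusted p = 0.0292). With slide as a block in a fit of the siRNA arrays alone, *Hsd17b12* (0.52, adjusted p = 0.00454) and *Hsd17b7* (-0.37, adjusted p = 0.0431) passed too, both reductases of steroid or lipid metabolism. Insl3 is the Leydig cell hormone of testicular descent, and its signals were 6741 to 15898 with siRNA1 and 13033 to 20033 with siRNA2.

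**Figure D4:**
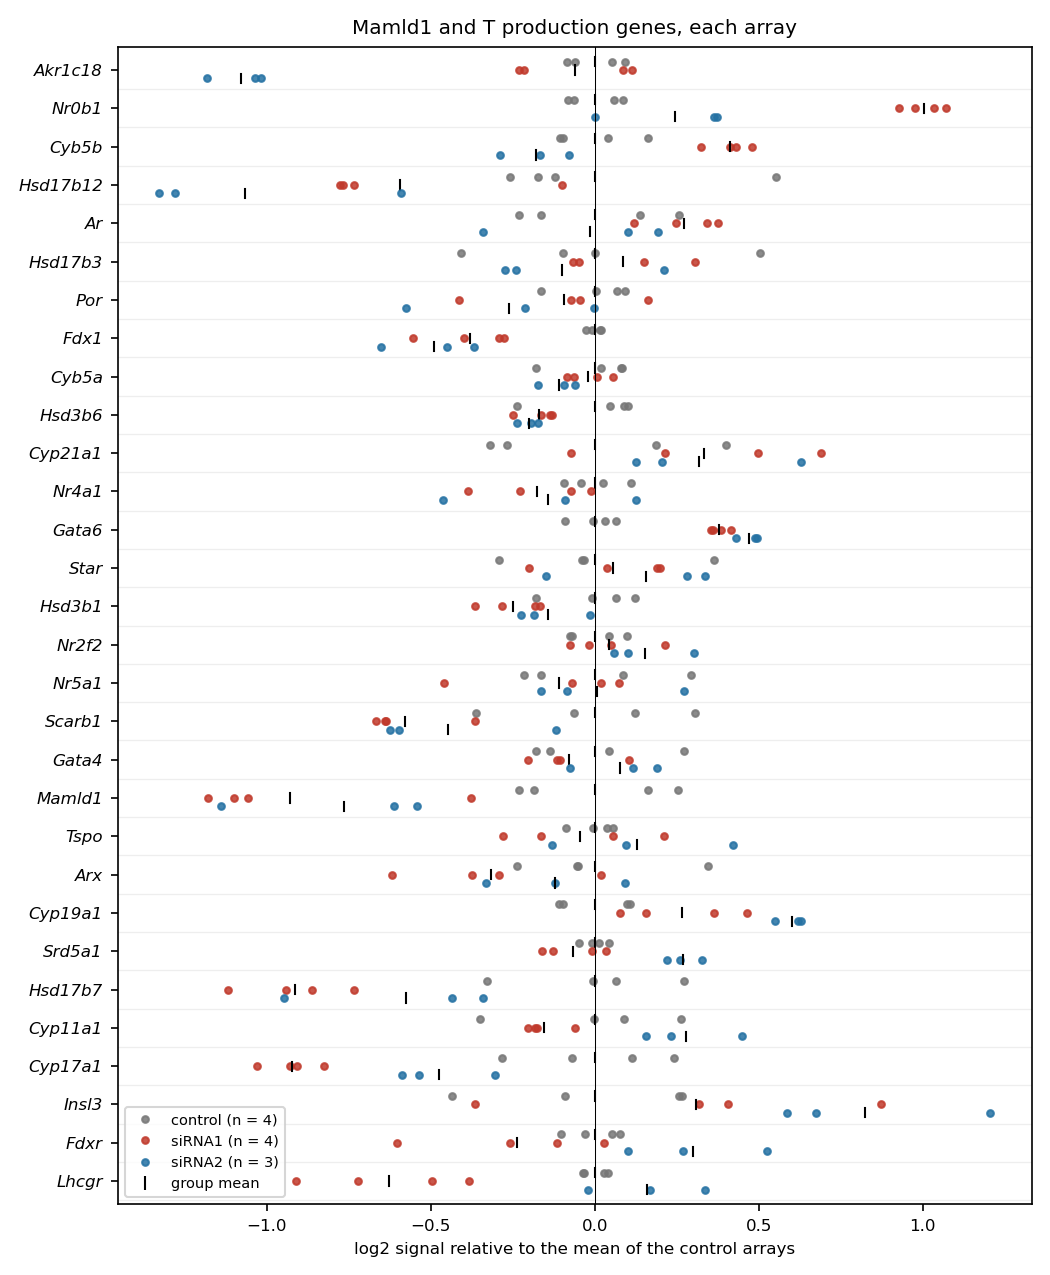
Log2 signal of each array relative to the mean of the 4 control arrays (x axis) for *Mamld1* and the 29 tested genes of T production (y axis), ordered by the difference between the siRNAs, with controls in gray, siRNA1 in red, siRNA2 in blue, and bars at the group means. *Lhcgr* is low in the siRNA1 arrays alone, *Akr1c18* in the siRNA2 arrays alone, *Nr0b1* is high in the siRNA1 arrays, and *Cyp17a1* is below control with both.

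Antioxidant genes formed a group of many members that were higher with siRNA1. The transcription factor Nrf2 is known to drive genes for glutathione synthesis and use, NADPH supply, and detoxification, and Leydig cells need such enzymes because their P450 enzymes leak reactive oxygen. Of 41 tested genes of this list, 13 passed with higher signals with siRNA1 and 1 with lower (31.7% and 2.44%, against 11.8% and 14.5% of all genes), and the median difference was 0.15, against -0.07. The list was chosen with earlier results known, so these counts are a description. The 5 called higher were *Gsta3* (1.78), *Cat* (1.59), *Gsta4* (1.45), *Gsr* (1.35), and *Pgd* (1.27), and *Mgst1* was called lower (-1.08). Of all genes, 1.84% were called higher and 1.69% lower.

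*Gsta3*, a glutathione transferase that also isomerizes steroid intermediates, stood at 9656, 9119.6, 8395, and 10325 with siRNA1, at 3015, 2445, and 2714 with siRNA2, and at 10682 to 12304 on the control arrays. *Cat*, catalase, stood at 7401, 6903, 7762, and 5809 with siRNA1, at 2757, 2319, and 1903 with siRNA2, and at 5400.0 to 6719 on the control arrays. Both were low with siRNA2, while with siRNA1 *Cat* overlapped the controls and *Gsta3* lay slightly below them (-0.32 on the log2 scale). Also low with siRNA2 were *Gsta4*, which conjugates lipid aldehydes (11502 to 13214 against 4044 to 4948), and *Pgd*, the NADPH-producing enzyme of the pentose phosphate pathway (17343 to 18553 against 7251 to 7802). Their control arrays stood at 14782 to 16703 and at 15108 to 16122. With siRNA1, *Gsta4* lay below all controls (-0.39 on the log2 scale) and *Pgd* above all of them (0.20). *Gsr*, glutathione reductase, had the other pattern, with 8772, 7172, 8809, and 8166 with siRNA1, 3580.2, 3081, and 3026 with siRNA2, and 2908 to 3614 on the control arrays. Here siRNA2 overlapped the controls and siRNA1 lay above them.

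*Mgst1*, a membrane-bound glutathione transferase, ran against its list. It stood at 40941, 41426, 38698, and 36043 with siRNA1 and at 83276, 81447, and 84008 with siRNA2, with controls of 105100.0 to 116060.0, so that it was below control with both duplexes and lowest with siRNA1. Its difference was -1.08 (standard error 0.08, limma adjusted p = 6.25e-06). The other members that passed were *Hmox1*, heme oxygenase (0.85), *Sod2*, the mitochondrial superoxide dismutase (0.80), *Mt1*, a metallothionein (0.59), *Slc7a11*, the cystine transporter (0.56), *Ftl1*, ferritin light chain (0.48), *Srxn1*, sulfiredoxin (0.47), *Gclc*, the catalytic subunit of glutamate-cysteine ligase (0.46), and *Txnrd1*, thioredoxin reductase (0.33). The 27 that did not pass had differences from -0.35 to 0.36.

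The promoters of this list are shown because 13 of its 14 genes that passed were higher with siRNA1. RefSeq windows of 300 bases (250 before to 50 after a gene start, build GRCm38.p6) were at hand for 9 of the 13 genes that passed higher, and 4 of these held the letters TGACNNNGC, the core of the antioxidant response element, on either strand. So did the window of the 1 gene that passed lower, those of 7 of 24 genes that did not pass, and those of 16.5% of the 9496 tested genes with a window. A match of letters is no evidence of a bound site. Capitals mark the match in a gene that was higher with siRNA1 by 1.78 (*Gsta3*), in another that was higher by 0.47 (*Srxn1*), and in the gene that was lower (*Mgst1*, -1.08).
*Gsta3* (chr1:21240335-21240634, plus strand): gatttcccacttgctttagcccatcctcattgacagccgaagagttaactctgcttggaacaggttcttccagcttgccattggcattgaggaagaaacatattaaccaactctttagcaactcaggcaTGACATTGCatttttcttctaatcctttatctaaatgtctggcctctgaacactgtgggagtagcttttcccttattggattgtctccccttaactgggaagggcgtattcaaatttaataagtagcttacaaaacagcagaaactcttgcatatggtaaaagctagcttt
*Srxn1* (chr2:152105274-152105573, plus strand): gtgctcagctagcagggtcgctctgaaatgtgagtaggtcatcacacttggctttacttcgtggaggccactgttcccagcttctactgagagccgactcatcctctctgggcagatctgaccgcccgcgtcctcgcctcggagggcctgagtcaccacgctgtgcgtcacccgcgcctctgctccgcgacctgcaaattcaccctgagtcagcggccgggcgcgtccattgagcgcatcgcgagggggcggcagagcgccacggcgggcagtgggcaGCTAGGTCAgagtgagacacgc
*Mgst1* (chr6:138140277-138140576, plus strand): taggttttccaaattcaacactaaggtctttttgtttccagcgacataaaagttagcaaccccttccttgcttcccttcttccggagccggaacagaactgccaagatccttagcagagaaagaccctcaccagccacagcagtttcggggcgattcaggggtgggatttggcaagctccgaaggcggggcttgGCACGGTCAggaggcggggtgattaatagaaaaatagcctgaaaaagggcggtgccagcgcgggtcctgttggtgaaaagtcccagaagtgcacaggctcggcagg

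Signaling by activins, TGF-β, and BMPs controls growth and hormone output in the gonad. Of 37 tested genes, 6 passed higher and 9 lower with siRNA1 (16.2% and 24.3%, against 11.8% and 14.5% of all genes), with a median of -0.16, where that of all genes was -0.07. The activin and inhibin subunits *Inhba* (-2.10, above), *Inhbb* (-0.95), and *Inha* (-0.36) were lower with siRNA1, while *Inhbb* stood at -0.08 against control with siRNA1 and 0.87 with siRNA2. Of the receptors, *Tgfbr2* (-0.97) and *Amhr2*, the receptor of anti-Müllerian hormone (-0.75), were lower, and *Bmpr1a* (0.51) and *Bmpr2* (1.12, called) were higher. *Bmpr2* stood at 113, 150.1, 120.1, and 164 with siRNA1 and at 45.1, 69.6, and 76.6 with siRNA2, with controls of 60.9 to 112. Of the targets, *Id1* (-0.51), *Id3* (-0.76), and *Smad6* (-0.52) were lower, and *Id2* (0.27) was higher. *Gdf15* (0.67), itself a secreted member of the TGF-β family, was also higher.

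Of 28 tested cytokine and chemokine genes, 4 passed higher and 10 lower with siRNA1 (14.3% and 35.7%, against 11.8% and 14.5% of all genes), with a median of -0.15 against -0.07. *Il18*, an inflammasome-processed cytokine, stood at 1372, 1342, 1228, and 1385 with siRNA1 and at 2701, 2542, and 2863 with siRNA2, with controls of 1981 to 2384 (difference -1.02, adjusted p = 2.64e-05). *Il1b* was dim, at 4.01 to 6.38 with siRNA1 and 15.7 to 18.6 with siRNA2 (difference -1.84). It entered the test through siRNA2 alone, where it was high. Its place among the 10 lower genes is therefore only a description. *Il6* was dim as well, at 10.5 to 11.8 with siRNA1 and 3.34 to 6.25 with siRNA2 (difference 1.16). *Tnfaip3*, the inhibitor A20 of NF-κB signaling, was higher with siRNA1 (1.10), and *Nfkbia*, which encodes the inhibitor IκBα, was lower (-0.79). *Icam1*, an adhesion molecule that responds to NF-κB, was also lower, with 93.4 to 106 with siRNA1, 252 to 263 with siRNA2, and 168 to 187 on the control arrays (difference -1.41, adjusted p = 1.59e-06). The direction was thus mixed among these genes.

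Transfected double-stranded RNA can itself be sensed, by Ddx58, Ifih1, or Eif2ak2, and start an interferon response. Of 30 tested genes of RNA sensing and the interferon response, 4 passed higher and 8 lower with siRNA1 (13.3% and 26.7%, against 11.8% and 14.5% of all genes), and the median was -0.20 against -0.07. Of these genes 0 were called, where 1.84% of all genes were called higher and 1.69% lower. The lower genes included *Stat2* (-0.71), *Psmb9* (-0.64), *Dhx58* (-0.61), *Irf1* (-0.51), *Isg20* (-0.43), *Adar* (-0.41), and *Eif2ak2* (-0.39), and the higher ones *Rsad2* (0.77), *Gbp2* (0.59), *H2-K1* (0.56), and *H2-D1* (0.33). Against control, the list medians were -0.10 with siRNA1 and 0.08 with siRNA2. In the silencing machinery, 7 of 18 genes passed, with *Dgcr8* (0.62), *Dicer1* (0.54), *Tnrc6a* (0.51), and *Fmr1* (0.47) higher and *Tnrc6b* (-0.72), *Gemin4* (-0.48), and *Ago2* (-0.41), the slicing Argonaute, lower with siRNA1.

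**Figure D5:**
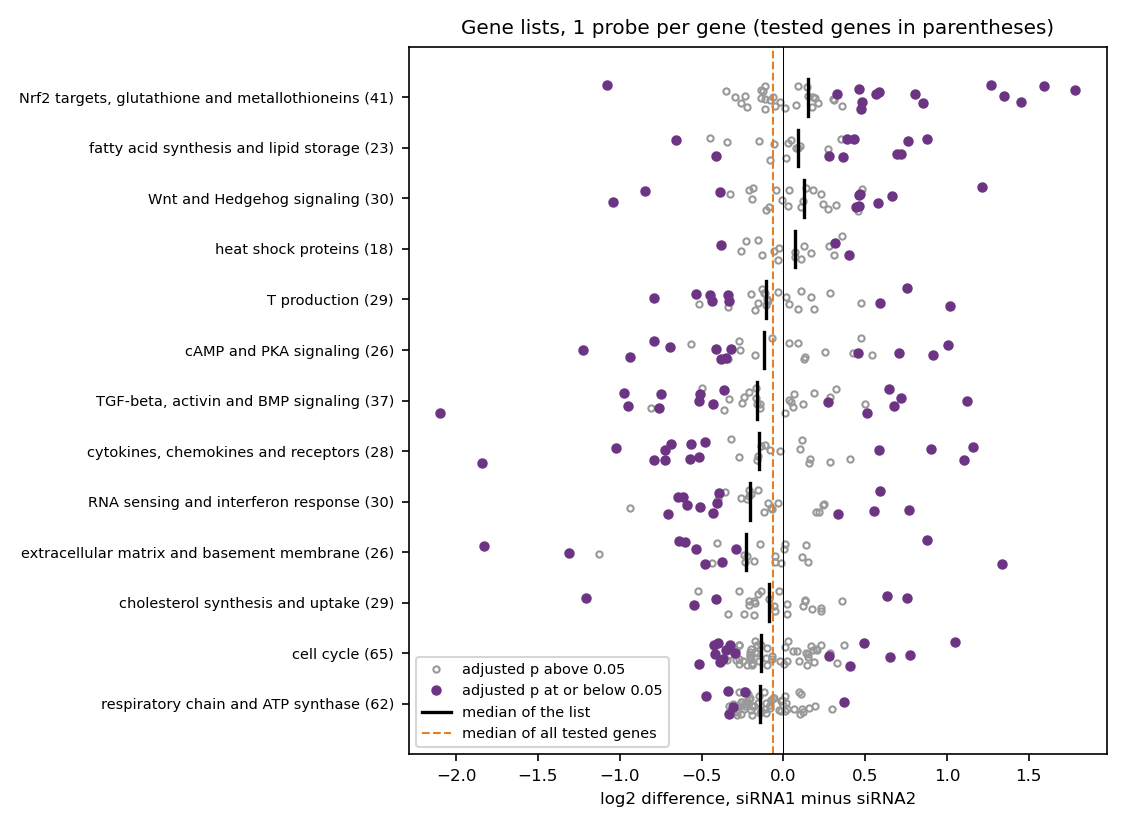
Log2 difference, siRNA1 minus siRNA2 (x axis), of the tested genes of 13 lists (y axis, number of tested genes in parentheses). Filled points passed the adjusted p, open points did not, black bars are list medians, and the dashed line is the median of all genes, -0.07. The antioxidant list has most filled points on the right, and the list of matrix genes most of them on the left.

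Genes of the extracellular matrix were 2 higher and 8 lower of 26 tested (7.69% and 30.8%, against 11.8% and 14.5% of all genes), with a median of -0.23 against -0.07. *Col4a5* (-1.83) and *Lamb3*, a laminin chain (-1.31), were called lower and *Nid2*, a nidogen of the basement membrane, higher (1.34, but well above background on 1 of 3 siRNA2 arrays), and the laminin chains *Lama2* (-0.64), *Lama4* (-0.53), and *Lamc1* (-0.37) were lower too. Collagens as a family had 1 of 19 higher and 6 lower, with *Col16a1* (-1.30) and *Col27a1* (-1.16, with -0.70 and an adjusted p of 0.0752 for its other probe) called besides *Col4a5*. *Col16a1* no longer passed without siRNA2 array 2 (-1.38, adjusted p = 0.0527) or siRNA2 array 3 (-1.08, adjusted p = 0.104). Of 28 adhesion genes, *Cd44*, the hyaluronan receptor, was called higher, with 2987 to 3316 against 1419.5 to 1528 (difference 1.06), and *Icam1* lower.

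In the cAMP and PKA pathway, which carries the hCG signal, 4 of 26 genes passed higher and 8 lower (15.4% and 30.8%, against 11.8% and 14.5% of all genes), with a median of -0.12 against -0.07. Besides *Lhcgr* (-0.79), the lower genes included *Adcy7*, an adenylyl cyclase (-1.22, called, 24.5 to 39.1 against 71.4 to 82.4), and the phosphodiesterase *Pde8b* (-0.94). The regulatory subunits of PKA were split, since *Prkar2a* was called higher (1.00, with 1.11 and 1.09 for its other probes) and *Prkar1b* (-0.69) and *Prkar2b* (-0.32) were lower. In fatty acid synthesis and lipid storage, 8 of 23 genes passed higher and 2 lower (34.8% and 8.7%, with the same shares of all genes to compare, median 0.09), among them *Lpin1* (0.88) and *Dgat2* (0.76), which act in triglyceride synthesis, and *Pnpla2*, the lipase that starts its breakdown (0.72). The fatty acid elongase *Elovl6* was lower (-0.65). In cholesterol synthesis and uptake, 2 of 29 passed higher and 3 lower, and *Acat2*, a thiolase at the entry of the pathway, was called lower with 829 to 1273 against 2128 to 2588 (difference -1.21).

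Wnt and Hedgehog genes had 7 of 30 higher and 3 lower (23.3% and 10.0%, against 11.8% and 14.5% of all genes, median 0.13), with *Dkk3* called higher (1.21, 32.0 to 35.4 against 14.0 to 15.5) and *Wnt4*, a ligand of ovarian development, called lower (-1.04, 92.4 to 118 against 198 to 241). Among endothelin genes, the receptor *Ednra* was called higher (1.10) and its ligand *Edn2* lower (-1.43). *Ednra* stood at 739 to 782 with siRNA1, 337 to 375 with siRNA2, and 126 to 157 on the control arrays, so that it was above control with both. *Igfbp5*, which binds insulin-like growth factors, was above control with both as well, at 330.2 to 415 with siRNA1 and 758 to 830.0 with siRNA2 (difference -1.09). Single called members of further lists included *Wee1*, the kinase that holds back mitosis (1.05), *Mdm2*, the p53 ubiquitin ligase (1.01), *Canx*, a chaperone of glycoproteins (1.11, with 0.50 and 0.46 for its other probes), *Ndrg1*, a hypoxia-induced gene (1.20), *Sec23a* and *Snap23* of vesicle transport (1.29 and 1.05), *Rock2*, a kinase of actin contraction (1.06), *Eif4a2*, a translation factor (1.12), and the clock gene *Per2* (-1.06, with -0.21 for its other probe).

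The counts of further groups are read against 11.8% higher and 14.5% lower of all genes. Of 62 genes of the respiratory chain and ATP synthase, 1 passed higher and 5 lower, of 81 ribosomal proteins 1 and 0, of 65 cell cycle genes 6 and 9, of 40 histones 2 and 1, and of 26 potassium channels 0 and 3. In Notch signaling, the pathway in which Mastermind-like proteins act, 3 of 30 genes passed higher and 2 lower (10.0% and 6.67%), with 0 called (against 1.84% and 1.69% of all genes). These were the coactivator *Maml1* (0.91), the target *Hes1* (0.42), and the receptor *Notch2* (0.40), which were higher, and *Pofut1*, which fucosylates the receptors (-0.48), and the presenilin *Psen2* (-0.47), which were lower. The counts of genes higher and lower were 2 and 5 of 35 for p53 targets and the Bcl2 family, 5 and 7 of 41 for the unfolded protein response, 2 and 1 of 18 for heat shock proteins, 0 and 4 of 33 for immediate early genes, 2 and 8 of 40 for growth factor signaling, 3 and 4 of 23 for proteases, 7 and 4 of 40 for glycolysis, 7 and 6 of 45 for autophagy, 7 and 5 of 44 for vesicle tethering, 6 and 5 of 43 for the cytoskeleton, 3 and 3 of 21 for the clock, and 4 and 2 of 38 for RNA polymerase and splicing. Zinc finger proteins had 15 of 249 higher and 33 lower, with *Zfp706* called higher (1.08, with 0.47 for its other probe) and *Zfp367* (-1.13) and *Zfp94* (-1.25, but well above background on 1 of 4 siRNA1 arrays) lower.

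Solute carriers had 42 of 233 higher and 33 lower with siRNA1 (18% and 14.2%, against 11.8% and 14.5% of all genes). Of the same 233, 6 were called higher and 9 lower, where 1.84% and 1.69% of all genes were called. The called higher were *Slc6a8*, the creatine transporter (1.49), the mitochondrial carriers *Slc25a16* (1.29) and *Slc25a42* (1.21), the iron exporter *Slc40a1* (1.22), the glutamate transporter *Slc1a2* (1.15), and *Slc6a19*, which was not well above background on any siRNA2 array and was at least 1.73-fold higher with siRNA1. The called lower, besides *Slc17a3*, included *Slc31a2* (-1.23), *Slc5a4b* (-1.19), *Slc24a2* (-1.19), *Slc16a13* (-1.14), *Slc25a47* (-1.11), *Slc47a1*, a cation and toxin exporter (-1.09), and *Slc6a13*, a GABA transporter (-1.09). *Slc47a1* stood at 6706 to 9504 with siRNA1, 17065 to 18730.0 with siRNA2, and 15326 to 19933 on the control arrays. *Slc40a1* was dim (14.9 to 21.5 against 5.01 to 13.0), with 1 of 3 siRNA2 arrays and 0 control arrays well above background. It entered the test through siRNA1 alone, where it was high, so its call is only a description. *Slc6a19* also entered through siRNA1 alone, and *Slc17a3* through siRNA2 alone, where each was high. The limma adjusted p of *Slc40a1* missed 0.05 when siRNA1 array 1 (1.12, adjusted p = 0.0572) was left out. It also did so without siRNA2 array 2 (0.94, 0.100) or 3 (1.10, 0.0852).

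The labelled cell type was compared with its markers. All 7 Leydig cell markers were tested, and the steroidogenic enzymes were among the bright probes in both siRNA groups. Of the 7, 0 passed higher and 3 lower with siRNA1 (0% and 42.9%, against 11.8% and 14.5% of all genes). The list median was -0.43, against -0.07 over all genes, and 0 were called. The lower genes were *Lhcgr*, *Cyp17a1*, and *Cyp11a1*. The last 2 did not pass in 7 and 10 of 28 alternatives, and a list of 7 genes is small. A lower level per cell and fewer cells with the marker cannot be told apart in bulk RNA. Of the markers of other cells, 5 of 10 for Sertoli cells, 4 of 7 for germ cells, 1 of 8 for macrophages, 1 of 6 for endothelium, and 3 of 4 for myoid cells had a tested probe. *Dhh* (-0.84) and *Des* (-0.44) passed lower, *Cdh5* (0.38) passed higher, and *Ddx4*, a germ cell helicase, was called lower (-1.66, 4.65 to 9.36 against 16.3 to 24.8, with controls of 17.4 to 25.9, but well above background on 1 of 4 siRNA1 arrays). The part of such markers in the differences above was not tested.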

How the data were processed

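Single-color Agilent arrays measured total RNA of 11 samples, with 7 compared here. The authors deposited, per array, signal intensities made with Feature Extraction (version 9.5.1.1), background-subtracted and not normalized between arrays, together with flags for outliers, saturation (0 spots on these arrays), and signal well above background. They also deposited GeneSpring GX group averages of 105 probes as intensities and normalized log2 values, from which gene symbols alone were read.

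Intensities were converted to log2 and scaled per array by subtracting the 75th percentile of its non-control spots. Outlier-marked spots (45 to 96 per array) were left out, and spots of a probe were averaged. A probe was kept if all arrays of some group had it well above background. Of 24257 such probes, 80 without a value on some array were dropped. RefSeq accessions named 24375 probes, that deposited table named 26 more, and 16773 have no symbol here. The 11 arrays were fitted as 3 groups in limma 3.58.1 under R 4.3.3, with Benjamini-Hochberg adjustment over all 24177 tested probes. Gene counts take the brightest probe of each gene. Exact permutation tests are two-sided. Replicate numbers were not taken as pairs, since the same-numbered siRNA arrays correlated at 0.52, 0.301, and -0.183 and shared a slide for numbers 1 and 2 alone.

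The members and lists were chosen with earlier results of these data known. Named are the 12 largest differences in each direction among called probes with a symbol, measured and separated on all 7 arrays. Also named are the 5 largest log2 differences in each direction among the called probes given as bounds, which need not be the largest bounds. Added to these were *Mamld1*, *B2m*, and the T production genes, called list members, and genes called in opposite directions against control. Members that passed the test without being called are named as examples, chosen after their values were seen. A few members counted in the lists are not reported by name here. Promoters are from RefSeq (GRCm38.p6). The alternatives are given in the closing section. The fit was tested on simulated data. The number of arrays limits the precision.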

Additional observations from a re-analysis of the deposited data

Results flagged for a closer look

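Among 118 named probes, the siRNA1 group was examined for 1 array far from the other 3, which chance alone flags in about 1 of 20 groups, and 10 probes had such an array. *Tmem178* stood at 117 on siRNA1 array 1, where the nearest array had 14.8. On the same array, *Hsd17b12* stood at 5708 (nearest 3678), *Cd44* at 3316 (nearest 3040.3), *Ednra* at 782.5 (nearest 745.6), *Slc6a8* at 42.3 (nearest 51.6), and *Edn2* at 4.94 (nearest 9.18). On siRNA1 array 2, *Mamld1* stood at 24.0, with 15.0 as the nearest value, and *Slc17a3* at 2.83, with 1.63 as the nearest and all 4 values not well above background. On siRNA1 array 4, *Scarb1* stood at 2196 (nearest 1818) and *Icam1* at 106 (nearest 95.3). The siRNA2 group has 3 arrays and was not examined in this way.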

How the results depend on the processing

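The calls depended most on background correction. With normexp correction of the median signals, 35 probes were called higher and 35 lower with siRNA1, the median difference over all probes moved from -0.04 to 0.11, and 11 of the 24 largest genes were called, with the direction kept in all 24. Among the 24, *Car6* fell to -0.07, and *Gpr179*, *Col4a5*, *Creb3l4*, and *Tmem116* to between -0.38 and -0.30. Of the probes followed singly, 73 kept the sign but no longer passed, and 11 that had passed changed sign and no longer passed. The other 35 were unchanged as to passing. For a probe that passed with neither processing, a change of sign was not counted. With local backgrounds limited, 169 and 117 were called, and, chosen after seeing the data, without the offset as well, 291 and 228, where all 24 were called and 517 of the 811 probes were shared. Among probes that had passed, the sign turned under normexp for *Ndrg4* (0.10), *Mgat4c* (0.084), *Lrrc18* (0.15), *Ttc22* (0.11), *Cyp19a1* (0.16), and *Lamb3* (0.0064). It also turned for *Il1b* (0.090), *Edn2* (0.034), *Ddx4* (0.089), *Col27a1* (0.029), and *Zfp94* (0.12), and with limited backgrounds for *Il6* (-0.059). With limited backgrounds, 9 of the probes followed singly kept the sign but no longer passed. They were *Tmem178* (0.34), *Ugt2a1* (0.090), *Cyp1a1* (0.078), *Cyp19a1* (-0.24), *Dkk3* (0.23), *Nid2* (0.083), *Slc1a2* (0.088), *Slc40a1* (0.0061), and *Slc6a19* (0.013). The cause of these changes was not tested. With the adjusted p alone, 2843 and 2860 probes passed, and counting symbols in place of probes gave 271 and 225. The replicate block gave 496 and 364 called probes (775 shared) and passed *Insl3* (-0.65), *Hsd17b12* (0.53), and *Hsd17b7* (-0.38) and lost *Cyp19a1* (-0.35, adjusted p = 0.0612), and same-numbered arrays were not taken as pairs. Over the other scalings, filters, and tests, 376 to 518 probes were called higher and 281 to 399 lower. Leaving out 1 array at a time gave 424 to 525 higher and 332 to 394 lower. Dim probes limit the bounds and the *Mamld1* comparison.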
